A study of Mus musculus with 12 samples.

Results

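The response of CD8 T cells to renewed engagement of the T cell receptor and CD28 was described in the 6 control-vector libraries of a 12-library RNA-seq series, 3 of stimulated and 3 of non-stimulated cells. The members were chosen by the vector and culture named in the sample labels, and all genes of the deposited table were read. The cells were CD8 T cells from the spleen of TCR transgenic OT-I mice on a C57BL/6 background, whose T cells carry one receptor, specific for a peptide of ovalbumin bound to H-2Kb. In all 6 libraries the cells had been transduced with a retroviral vector without an inserted gene and sorted for successful transduction. Retroviral transduction needs dividing T cells, so the non-stimulated controls are transduced and sorted cells and not naive ones. Non-stimulated cells then spent 6 h in medium with 100 ng/ml of IL-15, a cytokine that maintains memory CD8 T cells. Stimulated cells were cultured for 6 h with plate-bound anti-CD3e (clone 2C11) and anti-CD28 (clone 37.51), each at 1 µg/ml. The labels name IL-15 for the non-stimulated cultures only, so by the labels both IL-15 and the antibodies distinguish the cultures, and their effects cannot be told apart. The other 6 libraries of the series, from cells given a Batf3 vector and the same cultures, entered the fit and 1 comparison. The labels call the replicates technical, so SDs, SEs and p-values here measure the spread between libraries and not between mice or transductions.

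Engagement of the T cell receptor with CD28 costimulation activates calcium and NFAT, MAP kinase and AP-1, and NF-kB signalling. In CD8 T cells that have met antigen before, these factors switch on cytokine and chemokine genes within hours and start the growth in protein synthesis that precedes division. IL-15 acts through JAK and STAT5 and supports survival and slow turnover, and a resting or memory CD8 T cell keeps the receptors that let it leave tissue and recirculate through lymph nodes.

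Total counts lay between 14280451 and 14468231 in the 6 libraries, and 15702 of 55335 genes passed the filter on low counts. Levels are CPM, counts scaled to a common library size of 1e6 with TMM factors, and a count of 3 stood for 0.199 to 0.229 CPM in a single library. Levels are means ± SD and changes are log2 values ± SE from edgeR's quasi-likelihood fit, with n = 3 libraries per group. "Rose" and "fell" mean an adjusted p under 0.05 by that test with Benjamini-Hochberg adjustment over all tested genes, and the largest adjusted p of any named gene that passed was 0.00676. Genes named from a list beyond its 5 largest rises and 4 largest falls, and genes of the chromosome 11 stretches and receptor segments, were chosen after their values were seen. The defining CD8 T cell markers Cd3d, Cd3e, Cd3g, Cd8a, Cd8b1 and Trac summed to 1988 to 2014 CPM without stimulation and to 1318 to 1322 CPM with it. Cd4 stood at 0.221 and 0.305 CPM, and Ms4a1, Ncr1, Lyz2, Clec9a, S100a8, Pf4 and Hbb-bs, markers of B, NK, myeloid, dendritic, granulocytic, platelet and erythroid cells, had no count in any of the 6 libraries. The sum of the NK cell markers fell from 326 to 337 CPM to 44.9 to 47.0 CPM, nearly all of it Eomes, which CD8 T cells also express, and that of the stromal markers from 53.8 to 57.8 CPM to 6.10 to 7.39 CPM, nearly all of it Pecam1. The dendritic cell markers went from 24.6 to 26.1 CPM to 35.8 to 41.1 CPM, with Itgax and Zbtb46 higher and Xcr1 lower. The macrophage and monocyte markers went from 2.25 to 2.45 CPM to 4.87 to 7.32 CPM, mostly Itgam, and the granulocyte markers from 1.66 to 1.79 CPM to 2.89 to 3.96 CPM. Those of B cells went from 3.11 to 4.58 CPM to 0.685 to 1.45 CPM, those of platelets from 2.19 to 3.06 CPM to 1.37 to 1.68 CPM, and those of erythroid cells from 0.331 to 0.664 CPM to at most 0.0762 CPM. The part of other cells in the results was not tested. In bulk samples, fewer cells of a type and less RNA per cell cannot be told apart.

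Most of the measured transcriptome differed between the cultures. Of 15702 tested genes, 6220 (39.6%) rose and 6384 (40.7%) fell. The numbers of list members that rose or fell are to be read against these shares. Where a list lies near them, its counts say little about its members. At 2-fold or more, 2676 (17%) rose and 3786 (24.1%) fell, so falls outnumbered rises at that size. At 32-fold or more the order was the other way, with 168 rises and 58 falls. The 3 libraries of one group lay wholly above the 3 of the other for 12746 genes (81.2%), and the median log2 change of all tested genes was -0.01. Without TMM factors, with library sizes alone, the median was -0.19, so a small change is to be read against a shift of that size.

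Cytokine genes were among the largest rises. Of 30 listed cytokines 24 were tested, 18 rose and 6 fell, 17 and 4 of them at least 2-fold, with a median log2 change of 3.77. Ifng (ENSMUSG00000055170, chromosome 10, 118441046 to 118445892, GRCm38), the effector cytokine that activates macrophages and antigen presentation, was at 14.2, 15.9 and 13.8 CPM in the 3 non-stimulated libraries and at 13188, 12921 and 12802 CPM in the 3 stimulated ones. No library of one group came near the other, and the log2 change was 9.79 ± 0.06, 885-fold (adjusted p = 4.91e-76 by edgeR). Il2 (ENSMUSG00000027720, chromosome 3, 37120523 to 37125959), the growth factor of T cells, stood at 3.92, 4.58 and 3.11 and then at 3569.6, 3586 and 3554 CPM (9.85 ± 0.11). Tnf, an inflammatory cytokine, was not silent before stimulation, with 70.6, 75.9 and 67.0 CPM, and reached 2065, 2044 and 2086 CPM (4.86 ± 0.04). Its neighbour Lta, which encodes lymphotoxin alpha, rose from 54.4 to 349 CPM (2.68 ± 0.05).

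Il3 (ENSMUSG00000018914, chromosome 11, 54265303 to 54267277), a growth factor of myeloid progenitors and basophils, had the largest fitted change of all genes above 10 CPM. It held 4 counts over the 3 non-stimulated libraries and 2028, 1999 and 2026 CPM in the stimulated ones, a log2 change of 14.34 ± 0.72. Csf2 (ENSMUSG00000018916, chromosome 11, 54247271 to 54249667), which encodes GM-CSF and lies beside Il3, rose from 0.332 ± 0.115 to 363 ± 6.44 CPM (10.06 ± 0.37). Among the other genes around this pair on chromosome 11, P4ha2 and Pdlim4 rose (2.20 ± 0.17 and 2.67 ± 0.46) and Irf1, Rad50 and Kif3a fell. Of the type 2 cytokine genes of the same stretch, Il13 rose from 1 count over the non-stimulated libraries to 5.76 CPM. Il4 and Il5 were too low to be tested, at 0.133 and 0.0254 CPM for Il4 and 0 and 0.0761 CPM for Il5. Ranked per length of exon (TPM), Il3 at 5281 and Il2 at 5137 TPM were the seventh and eighth most abundant protein-coding transcripts of the stimulated cells.

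Il1a, an alarmin of the IL-1 family, rose from 0.133 to 634 CPM (12.13 ± 0.63). The IL-23 subunit gene Il23a rose from 0.309 ± 0.251 to 305 ± 2.12 CPM (9.90 ± 0.39), and Il10, a regulatory cytokine, rose from 0.133 ± 0.0665 to 51.3 ± 2.19 CPM (8.50 ± 0.59). Il24, of the IL-10 family, rose from 0.951 to 20.2 CPM (4.40 ± 0.25). Il17a and Il21 had no count in the 3 non-stimulated libraries and reached 2.13 and 0.533 CPM, at least 32.2-fold and 8.04-fold higher against a floor of 3 counts over the group. Smaller rises were those of Tgfb1 (1.5 ± 0.04), Mif (1.55 ± 0.04) and Lif (0.84 ± 0.04). The falling cytokine genes were already on in IL-15 culture. Osm, oncostatin M, fell from 169, 167 and 167 to 22.9, 20.7 and 22.8 CPM (-2.92 ± 0.06), Il16 fell from 87.0 to 20.6 CPM (-2.07 ± 0.07), Csf1 from 34.8 to 13.6 CPM (-1.36 ± 0.09) and Ltb, lymphotoxin beta, from 253 to 131 CPM (-0.95 ± 0.04). Il6, Il9, Il12a and Il22 were too low to be tested.

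Chemokine genes followed the cytokines. Of 16 listed, 13 were tested, 10 rose and 1 fell, with a median of 4.96. Xcl1, the ligand of XCR1 on cross-presenting dendritic cells, went from 10.1, 9.81 and 12.1 to 11206, 11015 and 11314 CPM (10.03 ± 0.07). The inflammatory chemokine genes Ccl3 and Ccl4 went from 5.71, 6.76 and 7.49 to 8100.1, 7989.6 and 8352 CPM (10.26 ± 0.09) and from 19.3, 19.8 and 22.1 to 9297, 9299.6 and 9496 CPM (8.84 ± 0.06). Ccl1, a ligand of CCR8, rose from 1.90 ± 0.190 to 3708 ± 87.9 CPM (10.92 ± 0.16) and Ccl9 from 0.111 ± 0.0384 to 337 ± 8.42 CPM (11.46 ± 0.65). No library of one culture overlapped the other for these 5 genes. Ccl5, a chemokine gene typical of memory CD8 T cells, was already at 149, 148 and 159 CPM and rose to 455, 422 and 465 CPM (1.56 ± 0.04). Cxcl16 rose from 1.24 to 32.6 CPM, Cxcl2 from 0.221 to 7.16 CPM and Cxcl9 from 21.5 to 29.1 CPM (0.44 ± 0.08), while Cxcl11, an interferon-induced CXCR3 ligand, fell from 2.96 to 1.19 CPM (-1.31 ± 0.28). Its neighbour in function, Cxcl10, did not pass the test, at 121 and 118 CPM (-0.04 ± 0.04). Ccl25 was not called either (-0.32 ± 0.20), and Ccl6, Ccl17 and Ccl22 were too low to be tested.

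Ccl1, Ccl3, Ccl4, Ccl5 and Ccl9 lie in one stretch of chromosome 11 that also holds the Schlafen genes. There Slfn1 fell from 491 to 34.1 CPM (-3.85 ± 0.05) and Slfn5 from 292 to 26.3 CPM (-3.47 ± 0.06). Slfn3, Slfn8 and Slfn9 fell too, while Slfn2 rose from 351 to 902 CPM (1.36 ± 0.03) and Slfn4 rose by 1.04. The Schlafen genes are similar in sequence, and their division of reads is uncertain.

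Together the listed cytokine genes took 0.117% ± 0.000969 of all counts without stimulation and 2.16% ± 0.0186 with it, an 18.5-fold larger share. The share of the chemokine genes went from 0.0357% ± 0.00121 to 3.06% ± 0.0456, which is 85.6-fold larger. In both cases the 3 stimulated libraries lay above the 3 others, and the exact two-sided permutation p was 0.1, the smallest that 3 against 3 allows. Ifng was the most abundant gene of the stimulated cells by counts, at 12970 ± 198 CPM, ahead of Xcl1, the elongation factor gene Eef1a1, Ccl4 and Ccl3. Per exon length the order was Xcl1 at 35185, Ccl4 at 23356, Ccl3 at 17509 and Ifng at 16488 TPM. In IL-15 culture Eef1a1 led by counts, mt-Co1 and Actb were among the 10 most abundant genes, and the only effector gene among these 10 was Gzmb.

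**Figure D1:**
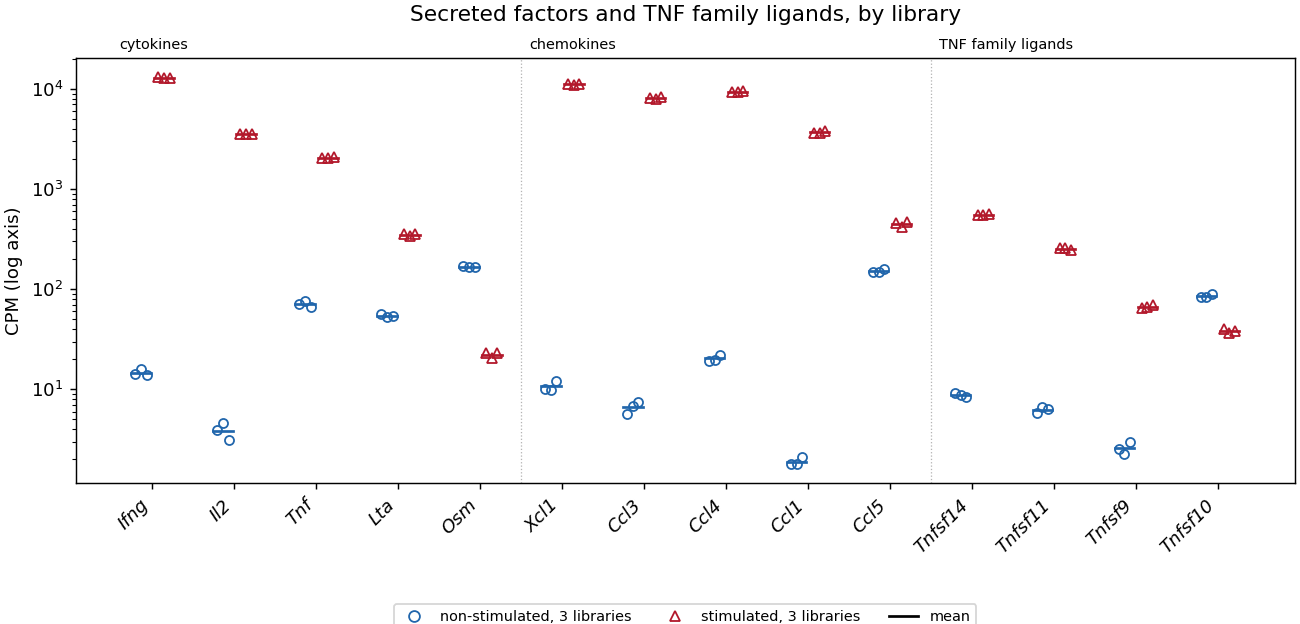
CPM on a log axis of 14 genes in each library, with open circles for the 3 non-stimulated and triangles for the 3 stimulated libraries and a bar at the mean. All genes but Osm and Tnfsf10 are higher after stimulation, with no overlap between groups, and Ifng and Xcl1 reach the highest levels.

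Of 10 TNF family ligand genes tested, 7 rose and 3 fell. Cd70, the ligand of CD27, held 3 counts over the non-stimulated libraries and reached 92.1, 96.7 and 93.1 CPM. Tnfsf14 (LIGHT), a ligand of HVEM, rose from 8.78 ± 0.377 to 557 ± 4.26 CPM (5.99 ± 0.08), and Tnfsf11 (RANKL) rose from 6.28 ± 0.399 to 253 ± 7.49 CPM (5.33 ± 0.09). Cd40lg, which helps B cells and dendritic cells, rose from 0.376 to 16.9 CPM (5.46 ± 0.36), Tnfsf9 (4-1BBL) from 2.59 to 66.9 CPM (4.69 ± 0.14), Tnfsf4 (OX40L) from 13.1 to 68.9 CPM (2.39 ± 0.08) and Tnfsf8 (CD30L) by 0.56. Tnfsf10 (TRAIL) fell from 85.2 to 38.1 CPM (-1.16 ± 0.06) and Tnfsf13b (BAFF) from 2.30 to 0.203 CPM (-3.45 ± 0.55). Fasl, the ligand of the death receptor Fas, was at 54.2 and 47.9 CPM (-0.18 ± 0.06).

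The promoter windows of Il2, Ifng and Csf2 are shown because these are effector genes that went from near silence to high levels, and that of Egr2, an early growth response factor whose values stand with the transcription factors, because it is an NFAT-dependent regulator. Each window runs from 250 bases before to 50 bases after the annotated start, from RefSeq on GRCm38.p6, whose start of Csf2 lies upstream of the one in GENCODE M21, and is written on the strand of the gene. Capitals mark GGAAA or its reverse complement, the core letters of NFAT sites, and in Egr2 the letters CACGTG, an E-box.
Il2 (chr3:37125905-37126204, minus strand): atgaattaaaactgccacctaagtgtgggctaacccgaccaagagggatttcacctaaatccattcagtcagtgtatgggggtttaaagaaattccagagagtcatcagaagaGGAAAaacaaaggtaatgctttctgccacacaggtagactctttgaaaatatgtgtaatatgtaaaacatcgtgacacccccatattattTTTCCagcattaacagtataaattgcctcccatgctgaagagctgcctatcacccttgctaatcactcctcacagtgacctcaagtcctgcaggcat
Ifng (chr10:118440796-118441095, plus strand): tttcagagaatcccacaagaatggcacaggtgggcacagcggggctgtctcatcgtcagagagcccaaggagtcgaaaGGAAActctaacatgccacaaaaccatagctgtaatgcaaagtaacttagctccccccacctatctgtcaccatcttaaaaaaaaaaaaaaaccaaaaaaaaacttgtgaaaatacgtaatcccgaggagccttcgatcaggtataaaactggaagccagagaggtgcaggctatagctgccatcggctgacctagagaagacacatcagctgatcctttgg
Csf2 (chr11:54249850-54250149, minus strand): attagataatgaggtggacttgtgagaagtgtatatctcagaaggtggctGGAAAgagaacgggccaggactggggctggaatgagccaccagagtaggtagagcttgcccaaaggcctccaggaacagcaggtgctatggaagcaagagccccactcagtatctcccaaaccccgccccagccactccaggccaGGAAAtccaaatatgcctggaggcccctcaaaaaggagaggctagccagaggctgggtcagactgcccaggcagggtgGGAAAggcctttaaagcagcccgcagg
Egr2 (chr10:67535249-67535548, plus strand): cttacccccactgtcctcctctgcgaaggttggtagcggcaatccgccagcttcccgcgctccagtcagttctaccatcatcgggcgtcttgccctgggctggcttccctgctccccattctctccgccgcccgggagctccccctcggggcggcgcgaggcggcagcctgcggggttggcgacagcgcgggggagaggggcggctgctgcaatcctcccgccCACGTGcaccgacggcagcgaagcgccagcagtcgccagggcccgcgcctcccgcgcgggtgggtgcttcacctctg
GGAAA stood in the Il2 window at positions -137 and -47 from the start, in the Ifng window at -172, in the Csf2 window at -200, -55 and 24, and not in the Egr2 window. Searched on both strands, these 5 letters occur in 61.3% of the 27025 promoter windows, so a match is common. The AP-1 letters TGANTCA, found in 7.93% of windows, and the NF-kB motif (kB), found in 4.35%, have no match in any of these 4 windows. The E-box of Egr2, at -27, is one that 7.24% of windows hold. These are matches of letters in a window and not measured binding, and no match says only that the letters are not in it. RefSeq windows were matched for 79.3% of the tested protein-coding genes and for 77.2% of those that rose at least 2-fold, under the 80% at which a comparison of motif shares between all risen and fallen genes would hold, so none is given.

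Genes that were silent in IL-15 culture made up much of the top of the ranking. Among genes with at most 3 counts over the 3 non-stimulated libraries, 157 rose at least 2-fold, of which 55 had no count there and 17 reached 10 CPM. The other direction held 149 genes with at most 3 counts after stimulation, none of which had reached 10 CPM before. Genes with so few counts in a group pass the filter on low counts only through other groups. Their direction was thus favoured in advance, and the 157 and 149 are a description only. Inhba, a subunit of activin, had no count before stimulation and stood at 58.9, 58.1 and 62.3 CPM after it, at least 901-fold higher. The isoprenoid isomerase gene Idi2 (at least 767-fold), Pdzk1ip1 (at least 685-fold), Tpbg (at least 208-fold), the enkephalin precursor gene Penk and the testis-expressed gene Adad1 (each at least 181-fold) were also without a count before. Cth, which makes cysteine from cystathionine, went from 1 count to 73.7, 68.6 and 75.5 CPM. With no or few counts in a group the fitted log2 change depends on the prior count, so for the genes without a count the bound is given instead.

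The receptors moved mostly the other way. Of 26 tested cytokine receptor genes 6 rose and 17 fell, with a median of -1.0. Il2ra, the high-affinity alpha chain of the IL-2 receptor, rose from 365, 344 and 344 to 1529.8, 1515 and 1510.4 CPM (2.11 ± 0.03), and Il15ra rose from 24.8 to 43.2 CPM (0.80 ± 0.07). The decoy receptor gene Il1r2 held 2 counts over the non-stimulated libraries and rose to 25.7, 19.4 and 21.6 CPM. Il1rl1, the IL-33 receptor, rose from 1.26 to 51.4 CPM (5.34 ± 0.20). Il2rb, the beta chain that IL-2 and IL-15 share, fell from 1138 to 469 CPM (-1.28 ± 0.03). Ifngr1, the ligand-binding chain of the interferon gamma receptor, fell from 359, 348 and 353 to 14.9, 15.0 and 13.6 CPM (-4.60 ± 0.07), while its ligand gene rose. Ifnar2, of the type I interferon receptor, fell from 57.8 to 6.93 CPM (-3.06 ± 0.10), Il12rb2 from 265 to 40.7 CPM (-2.70 ± 0.05) and Il10ra from 197 to 36.9 CPM (-2.42 ± 0.05). Il7r, the IL-7 receptor chain that keeps resting T cells alive, fell from 37.5, 34.3 and 37.5 to 6.47, 3.73 and 3.50 CPM (-2.99 ± 0.15). Tgfbr1, Il6st and Il27ra were not called, and Csf2rb and Il9r were too low to be tested.

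Homing receptors and integrins fell as well, 17 of 26 against 7 that rose, with a median of -1.13. S1pr1, the sphingosine 1-phosphate receptor that lets T cells leave lymphoid tissue, fell from 153, 157 and 160.3 to 3.05, 3.28 and 2.51 CPM (-5.73 ± 0.14), and S1pr4 fell from 121 to 3.78 CPM (-5.0 ± 0.12). Ccr2, a chemokine receptor for inflamed tissue, fell from 261, 279 and 266 to 9.52, 8.69 and 8.23 CPM (-4.93 ± 0.09) and Itgb7, a gut homing integrin chain, from 475 to 22.8 CPM (-4.38 ± 0.06). No stimulated library reached a non-stimulated one for these 4 genes. Among the 7 that rose was Cd44, the adhesion receptor of activated and memory T cells, from 123 ± 2.48 to 860.1 ± 1.74 CPM (2.80 ± 0.04). The integrin genes Itgav (from 45.9 to 166 CPM, 1.86 ± 0.05) and Itgal, a chain of LFA-1 (0.52 ± 0.03), were also among them. So was Cd69, which opposes S1PR1 at the surface, from 267, 259 and 274 to 594, 598 and 594 CPM (1.16 ± 0.04). Cd69 was thus well expressed before stimulation. Gpr183 and Itgb2 were not called, and Ccr6 and Ccr9 were too low to be tested.

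TNF family receptors went both ways, with 9 rises and 7 falls of 17, where 39.6% and 40.7% of all tested genes rose and fell. The costimulatory receptors rose: Tnfrsf4 (OX40) from 5.99 ± 0.953 to 407 ± 6.92 CPM (6.08 ± 0.09), Tnfrsf9 (4-1BB) from 187, 185 and 178 to 942, 953 and 960.4 CPM (2.38 ± 0.04), Tnfrsf18 (GITR) from 41.7 to 100.3 CPM (1.27 ± 0.05). Tnfrsf25 (DR3) and Tnfrsf21 rose by 1.68 and 1.54. The falls were led by Tnfrsf26 (from 67.4 to 3.25 CPM, -4.37 ± 0.14), with its neighbours Tnfrsf23 (-1.87) and Tnfrsf22 (-1.39), and included Cd40 (from 32.1 to 11.5 CPM). Tnfrsf8 was not called.

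Inhibitory and costimulatory receptors of the immunoglobulin and SLAM families showed 14 rises and 9 falls among 25, beside 39.6% and 40.7% of all tested genes. Crtam, a marker of strong recent stimulation in CD8 T cells, rose from 9.51 ± 0.212 to 746 ± 9.51 CPM (6.29 ± 0.08). Of the inhibitory receptors, Havcr2 (TIM-3) rose from 4.84 ± 0.459 to 257 ± 6.50 CPM (5.73 ± 0.10), Pdcd1 (PD-1) from 11.8, 13.7 and 13.5 to 189, 195 and 193 CPM (3.89 ± 0.07) and Lag3 from 53.8 ± 2.22 to 304 ± 8.96 CPM (2.50 ± 0.05), and Cd200 rose from 0.818 to 49.4 CPM (5.90 ± 0.24). Ctla4, the inhibitory receptor that competes with CD28, went the other way, from 93.4, 89.2 and 87.3 to 8.30, 8.38 and 8.38 CPM (-3.43 ± 0.09), and so did its neighbour Icos, a costimulatory receptor of the same family (from 67.9 ± 0.801 to 21.5 ± 0.448 CPM, -1.66 ± 0.07). Lair1 fell from 18.3 to 0.812 CPM (-4.48 ± 0.28) and Cd226 from 33.2 to 7.44 CPM (-2.16 ± 0.10). Slamf1 rose from 11.4 to 152 CPM (3.74 ± 0.07), while its relative Cd48 fell from 221 to 52.8 CPM (-2.07 ± 0.05). Cd244a and Lilrb4a were not called.

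The cytotoxic granule list held 11 rises and 7 falls among 20 tested members, beside 39.6% and 40.7% of all tested genes. Gzmb, granzyme B, was at 2792, 2839.6 and 2816 CPM in IL-15 culture and at 3573, 3565 and 3589 CPM after stimulation, a small change from a high level (0.34 ± 0.03). Prf1, the pore-forming partner of the granzymes, started low and rose from 11 ± 0.322 to 93.6 ± 2.75 CPM (3.08 ± 0.08). The protease inhibitors that protect the cell from its own granzymes rose most: Serpinb9 from 72.8 ± 1.21 to 1500.3 ± 16.6 CPM (4.37 ± 0.04) and Serpinb6b from 18 ± 1.65 to 823 ± 6.69 CPM (5.51 ± 0.06). Srgn, the granule proteoglycan, rose from 246 to 744 CPM (1.60 ± 0.04), and Gzma fell from 44.0 to 13.6 CPM (-1.70 ± 0.08), Gzmk from 1.83 to 0.0762 CPM and Ctsw from 376 to 115 CPM. Gzme and Gzmm were not called, and near-identical copies among the granzymes and Serpinb6 genes make their single values less certain. Gzmf and Gzmg were too low to be tested. All 10 tested NK-type receptors fell, 8 of them at least 2-fold, among them Klrd1 (CD94, from 166 to 17.4 CPM, -3.25 ± 0.08) and Klrk1 (NKG2D, from 154 to 44.1 CPM, -1.80 ± 0.05).

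Among genes of the T cell receptor complex and its first signalling steps, 14 of 40 rose and 26 fell. Cd3e fell from 174 ± 2.91 to 93.3 ± 1.61 CPM (-0.90 ± 0.04) and Cd8a from 748 ± 5.55 to 555 ± 4.21 CPM (-0.43 ± 0.03). Dgka, a diacylglycerol kinase that limits RAS activation and is linked to anergy, fell from 391, 386 and 385 to 14.7, 12.3 and 13.1 CPM (-4.85 ± 0.07). The signalling genes Prkcq (protein kinase C theta, -3.54 ± 0.05), Txk (-3.53 ± 0.14), Sla2 (-3.92 ± 0.10) and Grap2 (-3.02 ± 0.04) fell with it. The negative regulator genes Cd5 and Cd6 rose, from 35.3 to 373 CPM (3.40 ± 0.05) and from 96.4 to 653 CPM (2.76 ± 0.04), as did Sla (from 163 to 953 CPM, 2.55 ± 0.04), and the adaptor gene Lcp2 (SLP-76) rose from 285 to 739 CPM (1.38 ± 0.04). In the calcium and NFAT list 7 of 22 rose, with Nfat5 (from 55.5 to 355 CPM), the channel gene Orai1 (from 22.0 to 97.5 CPM) and Nfatc1 (from 178 to 423 CPM) first, and 14 fell, with Itpr3 (from 114 to 11.5 CPM), Ppp3cc (from 144 to 22.1 CPM) and the calcium sensor gene Stim1 (from 81.5 to 19.4 CPM) first. Kcnn4 was not called.

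Feedback regulators of MAP kinase and G protein signalling rose in 13 of 16 cases. Spry1, a Sprouty inhibitor of RAS signalling, rose from 0.973 ± 0.0763 to 148 ± 0.935 CPM (7.24 ± 0.22), Spry2 from 2.50 to 44.5 CPM (4.15 ± 0.15), the ERK phosphatase gene Dusp4 from 16.1 to 476 CPM (4.88 ± 0.06) and Rgs16, which limits chemokine receptor signalling, from 8.29 ± 0.793 to 1222 ± 12.3 CPM (7.20 ± 0.08). Dusp10 fell from 18.7 to 3.55 CPM (-2.39 ± 0.14), and Dusp1 was not called. In the NF-kB list 16 of 25 rose and 6 fell. The subunit genes Rel (from 39.4 ± 2.46 to 624 ± 5.34 CPM, 3.98 ± 0.05), Nfkb1 (from 297 ± 2.32 to 2000.3 ± 12.4 CPM, 2.75 ± 0.03) and Nfkb2 (from 95.3 to 738 CPM, 2.95 ± 0.04) rose, as did Nfkbid (from 55.9 to 795 CPM, 3.83 ± 0.04). The inhibitor genes that end NF-kB activity, Nfkbib (from 34.7 to 218 CPM, 2.65 ± 0.05), Nfkbia (from 99.8 ± 3.08 to 370.5 ± 5.56 CPM, 1.89 ± 0.04) and Tnfaip3 (from 84.2 to 769.5 CPM, 3.19 ± 0.04), rose too. Cyld, a deubiquitinase that also restrains the pathway, fell from 126 to 47.2 CPM (-1.42 ± 0.05). Birc3, Traf2 and Ikbke were not called.

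The kB motif, by which NF-kB dimers bind DNA, had a match in 9 of the 20 windows available for this list of 25, against 4.35% of all 27025 windows. Of the genes with a match, Cyld (-1.42) and Bcl3 (-0.49) fell and the others rose. The windows of the subunit gene Rel and the inhibitor gene Nfkbia, chosen after their matches were seen, show the motif in capitals at -92 and -91 (overlapping) and at -29.
Rel (chr11:23770920-23771219, minus strand): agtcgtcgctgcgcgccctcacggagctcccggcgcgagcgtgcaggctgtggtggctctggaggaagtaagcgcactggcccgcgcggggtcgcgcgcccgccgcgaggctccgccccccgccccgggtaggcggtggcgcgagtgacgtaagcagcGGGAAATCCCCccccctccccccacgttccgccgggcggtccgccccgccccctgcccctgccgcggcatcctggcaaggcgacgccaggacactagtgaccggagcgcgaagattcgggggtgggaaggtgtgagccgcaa
Nfkbia (chr12:55492598-55492897, minus strand): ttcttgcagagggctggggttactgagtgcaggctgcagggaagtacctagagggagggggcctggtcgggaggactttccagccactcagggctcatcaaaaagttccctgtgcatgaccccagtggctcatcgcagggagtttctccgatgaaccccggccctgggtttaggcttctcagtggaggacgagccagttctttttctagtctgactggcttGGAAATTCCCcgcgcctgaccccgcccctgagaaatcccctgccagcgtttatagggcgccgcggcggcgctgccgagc

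JAK, STAT and SOCS genes also went both ways. Stat5a, the transducer of IL-2 and IL-15, rose from 76.6 ± 3.13 to 1099 ± 6.04 CPM (3.84 ± 0.04), Stat5b from 120.2 to 342 CPM (1.51 ± 0.04) and Jak2 from 204 to 892 CPM (2.13 ± 0.04). The interferon transducer gene Stat2 fell from 298 ± 2.50 to 63.0 ± 3.70 CPM (-2.24 ± 0.05), as did Jak1 (from 571 to 194 CPM, -1.56 ± 0.04). The feedback inhibitor genes Socs2 and Socs3 fell from 63.5 to 15.1 CPM and from 34.0 to 9.12 CPM. Over the list 11 of 19 rose and 8 fell, beside 39.6% and 40.7% of all tested genes.

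Of 25 immediate early factors 21 rose and 3 fell, with a median of 1.63. The nuclear receptors of the NR4A family, reporters of receptor signal strength, all rose: Nr4a1 (NUR77) from 26.5, 27.8 and 28.4 to 316, 322 and 323 CPM (3.54 ± 0.05), Nr4a3 from 15.0 to 660.0 CPM (5.46 ± 0.06) and Nr4a2 from 6.17 to 132 CPM (4.42 ± 0.10). So did the early growth response genes, with Egr2 (ENSMUSG00000037868, chromosome 10, 67535475 to 67542188) going from 12, 11.1 and 11.4 to 301, 305 and 307 CPM (4.72 ± 0.07), Egr4 from 0.464 to 28.2 CPM (5.90 ± 0.33), Egr3 from 25.9 to 194 CPM (2.90 ± 0.06) and Egr1 from 187 to 784 CPM (2.07 ± 0.04). The AP-1 genes were mixed. Fos rose from 12.4 ± 0.457 to 29.1 ± 1.96 CPM (1.23 ± 0.09), Fosl1 from 0.221 to 9.04 CPM (5.30 ± 0.49) and Junb from 211 to 511 CPM (1.27 ± 0.04), while Jun fell from 108 ± 3.75 to 90.0 ± 3.81 CPM (-0.26 ± 0.05) and Jund by a log2 change of -0.19 ± 0.05. Myc, which drives growth and ribosome production, was at 405, 407 and 421 CPM before and at 1261, 1269 and 1277 CPM after stimulation (1.63 ± 0.03). Nab1 was not called.

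The lineage and memory factors had no common direction. Of 43, 20 rose and 22 fell, where 39.6% and 40.7% of all tested genes did so. Irf4, a dose-sensitive target of receptor signalling that pairs with BATF, rose from 116, 115 and 117 to 1372, 1369 and 1355 CPM (3.56 ± 0.04) and Irf8 from 115 ± 1.38 to 611 ± 4.48 CPM (2.41 ± 0.04). Batf rose from 19.6 ± 0.411 to 36.2 ± 1.05 CPM (0.88 ± 0.07) and Batf3 from 6.77 ± 0.833 to 18.4 ± 0.735 CPM (1.44 ± 0.10). Zeb2, an effector factor, rose from 1.35 ± 0.381 to 135 ± 0.656 CPM (6.64 ± 0.19), Ahr from 3.27 to 48.0 CPM (3.87 ± 0.13) and Tbx21, which encodes T-bet, from 105 ± 3.20 to 168 ± 2.97 CPM (0.68 ± 0.04). Tcf7, whose product TCF-1 maintains stem-like memory cells, fell from 248, 252 and 261 to 66.7, 65.0 and 68.6 CPM (-1.92 ± 0.05), and Eomes, a T-box factor of memory cells, from 333, 323 and 332 to 44.8, 46.4 and 44.4 CPM (-2.87 ± 0.05). Klf2, which maintains S1pr1, fell from 102 ± 2.02 to 8.15 ± 0.992 CPM (-3.65 ± 0.09), Satb1 from 321 to 43.2 CPM (-2.89 ± 0.05) and Ikzf2 from 26.0 to 3.05 CPM (-3.09 ± 0.15). Prdm1, which encodes the terminal effector factor BLIMP-1, was low and fell from 8.14 ± 0.317 to 3.86 ± 0.800 CPM (-1.07 ± 0.15). Klf10 was not called, and Batf2 was too low to be tested.

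Among survival genes the anti-apoptotic family members moved in opposite directions. Bcl2, the survival factor of resting T cells, fell from 261, 259 and 280.5 to 78.0, 72.6 and 72.3 CPM (-1.84 ± 0.04), while Bcl2l1 (BCL-XL) rose from 72.2, 65.3 and 66.5 to 506, 502 and 507 CPM (2.89 ± 0.04). The Bcl2a1 genes rose by 4.45 (Bcl2a1a), 4.35 (Bcl2a1d) and 3.84 (Bcl2a1b), but they are near-identical copies and their values are not independent. Cflar, which blocks caspase-8, rose from 131 to 646 CPM (2.30 ± 0.04), and the kinase gene Pim2 fell from 258 to 55.3 CPM (-2.22 ± 0.05). Mcl1 stood at 339.7 and 389 CPM (0.19 ± 0.04), a rise that was not called with library sizes alone. Over the list 8 of 15 rose and 6 fell, beside 39.6% and 40.7% of all tested genes. On the pro-apoptotic side 13 of 17 fell and 3 rose. The fallers included the caspase genes Casp8 (from 224 to 50.3 CPM, -2.15 ± 0.05) and Casp9 (-2.30), the apoptosome gene Apaf1 (-2.38) and Bad (-2.66). Bcl2l11, which encodes the pro-apoptotic BIM, fell only a little, from 234 ± 3.89 to 206 ± 5.13 CPM (-0.18 ± 0.04), and Diablo rose from 5.28 to 10.9 CPM. Bik was not called and Hrk was too low to be tested. All 8 GIMAP genes, GTPases of lymphocyte survival that lie side by side on chromosome 6, fell, 7 of them at least 2-fold, from Gimap7 (from 103 to 5.31 CPM, -4.28 ± 0.11) to Gimap5 (from 105 to 91.8 CPM, -0.19 ± 0.05).

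The genes that build ribosomes rose without exception. All 38 ribosome biogenesis genes rose at least 2-fold, with a median of 1.73, against 17% of all tested genes. Npm1, nucleophosmin, went from 875, 848 and 889 to 3733, 3640.2 and 3608 CPM (2.07 ± 0.03), the pre-rRNA processing factor gene Rrp9 from 52.6 ± 2.02 to 318 ± 7.57 CPM (2.60 ± 0.05), Pno1 from 41.6 to 208 CPM (2.32 ± 0.05), Utp20 from 58.5 to 287 CPM (2.29 ± 0.05) and the RNA polymerase I subunit gene Polr1b from 70.5 to 311 CPM (2.14 ± 0.04). An E-box, CACGTG, to which MYC can bind, was found in 8 of the 33 windows available for these 38 genes (24.2%) and in 7.24% of all windows. Ribosomal protein genes themselves changed little. Of 40, 37 rose and 0 reached 2-fold, with a median of 0.24, and with library sizes alone the median was 0.05, with 21 that rose and 7 that fell.

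Supply genes of protein synthesis rose along with them. In the polyamine list 10 of 12 rose, among them the spermidine synthase gene Srm (from 94.7 ± 0.582 to 577 ± 5.25 CPM, 2.61 ± 0.04) and Odc1 (from 408 ± 2.48 to 1064 ± 7.14 CPM, 1.38 ± 0.03), whose inhibitor genes Oaz1 and Oaz2 fell (-0.27 and -1.28). Of the tRNA synthetase genes 17 of 19 rose, led by Cars (from 34.8 to 208 CPM, 2.58 ± 0.05) and Iars (from 99.7 to 524 CPM, 2.39 ± 0.04), with Wars, an interferon-induced member, the only one that fell (from 296 to 198 CPM, -0.58 ± 0.04) and Vars not called. Of the ATF4 targets and serine synthesis genes 19 of 20 rose. Besides Cth these were led by Chac1 (from 1.33 to 54.9 CPM, 5.36 ± 0.19), Pycr1 (from 3.27 to 31.3 CPM, 3.25 ± 0.13), the asparagine synthetase gene Asns (from 42.1 ± 1.88 to 365 ± 6.98 CPM, 3.12 ± 0.05) and Mthfd2, a mitochondrial one-carbon enzyme (from 68.3 to 452 CPM, 2.73 ± 0.04). Ddit4, an inhibitor of mTORC1 in the same list, fell from 75.7 to 35.1 CPM (-1.11 ± 0.06). Among nutrient transporters 15 of 18 rose. The neutral amino acid transporter genes Slc7a5 (from 150.3 ± 4.44 to 1043 ± 18 CPM, 2.79 ± 0.04), Slc1a4 (from 4.98 to 149 CPM, 4.90 ± 0.10) and Slc1a5 (from 241 to 1181 CPM, 2.29 ± 0.04) and the transferrin receptor gene Tfrc (from 200.4 ± 8.25 to 1168 ± 11.4 CPM, 2.54 ± 0.05) were first. Of the chaperone and unfolded protein response genes 29 of 33 rose and 2 fell, with the mitochondrial chaperone genes Hspd1 (from 304 ± 12.1 to 1347 ± 25.9 CPM, 2.15 ± 0.03) and Hspa9 (from 270.3 to 1162 CPM, 2.10 ± 0.04) and the endoplasmic reticulum chaperone gene Hspa5 (from 682 to 2498 CPM, 1.87 ± 0.03) high among them.

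Glycolysis genes gave 7 rises and 8 falls among 19, shares near the 39.6% and 40.7% of all tested genes, and the hexokinase genes moved apart. Hk2 rose from 83.0 ± 1.97 to 212 ± 6.24 CPM (1.35 ± 0.04) and Hk1 fell from 187 ± 2.89 to 57.4 ± 0.926 CPM (-1.70 ± 0.05). Pfkp rose from 353 to 689 CPM (0.97 ± 0.03) and Ldha from 654 to 995 CPM (0.61 ± 0.03), while Pdk1, a brake on pyruvate entry into mitochondria, fell from 71.8 to 23.3 CPM (-1.62 ± 0.07). Of the fatty acid oxidation genes 13 of 18 fell and 4 rose, with Acadl (from 252 to 22.7 CPM, -3.47 ± 0.06) and the carnitine palmitoyltransferase gene Cpt1a (from 54.8 ± 2.58 to 8.58 ± 1.00 CPM, -2.67 ± 0.09) lowest. Cholesterol and fatty acid synthesis genes fell in 20 of 30 cases, with the desaturase gene Scd2 (from 398 to 40.04 CPM, -3.31 ± 0.05) and Elovl6 (from 49.7 to 4.42 CPM, -3.49 ± 0.12) in front, but the fatty acid synthase gene Fasn and the carboxylase gene Acaca rose from 314 to 854 CPM (1.44 ± 0.03) and from 62.0 to 155 CPM (1.32 ± 0.05). Respiratory chain genes of the nucleus changed at least 2-fold in 2 of 35 cases, Uqcrq up (1.06 ± 0.05) and Ndufb10 down (-1.48 ± 0.08). None of the 13 mitochondrially encoded genes did, and their share of counts was 1.87% ± 0.0723 and 1.91% ± 0.0354 (exact two-sided permutation p = 0.3).

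Interferon-stimulated genes were lower throughout the list. All 29 fell, 26 of them at least 2-fold, with a median of -2.62, although Ifng itself had risen. The antiviral GTPase gene Mx1 went from 536, 544 and 533 to 30.1, 35.0 and 32.7 CPM (-4.04 ± 0.05), Ifit3 (ENSMUSG00000074896, chromosome 19, 34583531 to 34588731) from 597, 604 and 590.2 to 37.8, 34.5 and 39.1 CPM (-4.01 ± 0.05) and Oas2 from 149 ± 8.31 to 12.7 ± 0.775 CPM (-3.55 ± 0.08). Genes better known as targets of interferon gamma fell too, Gbp4 from 923 ± 10.8 to 86.8 ± 0.360 CPM (-3.41 ± 0.04), Igtp from 1306 to 129 CPM (-3.34 ± 0.04) and Irf1 from 433 ± 2.89 to 111 ± 3.26 CPM (-1.96 ± 0.04). The groups did not overlap for any of these genes. Of 10 genes of MHC class I presentation 8 fell, including Tap1 (from 658 to 249 CPM, -1.40 ± 0.04), Tap2 (from 265 to 55.9 CPM, -2.25 ± 0.05) and the transactivator gene Nlrc5 (from 736 ± 12 to 215 ± 2.13 CPM, -1.78 ± 0.04), while the peptidase gene Erap1 (0.35 ± 0.04) and Cd74, the invariant chain of class II (from 13.3 to 72.6 CPM, 2.45 ± 0.08), rose. The proteasome list showed the same divide within one particle: 26 of 34 subunits rose, mostly by less than 2-fold, and the 3 interferon-inducible catalytic subunits were the 3 that fell at least 2-fold, Psmb8 (from 343 to 61.3 CPM, -2.48 ± 0.05), Psmb9 (from 201 to 43.4 CPM, -2.21 ± 0.05) and Psmb10 (from 225 ± 4.59 to 30.7 ± 0.942 CPM, -2.87 ± 0.06). Their constitutive counterpart genes Psmb6 and Psmb7 rose (1.03 ± 0.04 and 0.84 ± 0.06).

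The promoter window of Ifit3, chosen after its matches were seen, shows the interferon-stimulated response element, searched as GAAA, any 2 bases and GAAA on either strand, in capitals at -156 and -122.
Ifit3 (chr19:34583279-34583578, plus strand): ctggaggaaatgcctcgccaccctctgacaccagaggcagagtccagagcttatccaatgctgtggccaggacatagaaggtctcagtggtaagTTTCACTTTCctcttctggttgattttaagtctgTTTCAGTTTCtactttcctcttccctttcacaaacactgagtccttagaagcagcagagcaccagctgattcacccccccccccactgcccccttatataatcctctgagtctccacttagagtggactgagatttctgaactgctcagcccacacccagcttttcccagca
The element has a match in 13 of the 22 windows available for this list of 29 and in 3.49% of all windows, but 22 of 29 is too few for a comparison of the shares.

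Cell cycle genes were lower 6 h after stimulation than in IL-15 culture. All 22 mitosis genes fell at least 2-fold, with a median of -2.43. Ccnb2, cyclin B2, went from 71.9, 71.1 and 69.6 to 4.49, 3.58 and 4.34 CPM (-4.09 ± 0.12) and the spindle gene Nusap1 from 111, 126 and 124 to 8.22, 8.38 and 8.30 CPM (-3.85 ± 0.09), with Cenpf (from 70.3 to 6.83 CPM), Plk1 (from 69.8 to 9.72 CPM) and Prc1 (from 80.0 to 12 CPM) beside them. Of the replication and nucleotide synthesis genes 28 of 35 fell, among them the ribonucleotide reductase gene Rrm2 (from 184 ± 4.30 to 26.6 ± 0.609 CPM, -2.79 ± 0.06), the ligase gene Lig1 (from 113 to 15.2 CPM, -2.90 ± 0.07) and Mcm7 (from 188 to 47.6 CPM, -1.98 ± 0.05). The 6 that rose were enzymes of new nucleotide synthesis, led by Ctps (from 57.7 ± 0.460 to 286 ± 2.17 CPM, 2.31 ± 0.05), Cad (from 158 to 451 CPM, 1.52 ± 0.04), Gart (from 96.6 to 223 CPM, 1.21 ± 0.04) and Ppat (from 57.4 to 121 CPM, 1.08 ± 0.05). Not all enzymes that make nucleotides rose, as Tyms (-1.48) and Rrm1 (-1.63) fell with Rrm2. Among regulators of entry into the cycle, Ccnd2 rose from 738 ± 5.32 to 1481 ± 8.84 CPM (1.0 ± 0.03), Ccnd1 from 0.929 to 25.4 CPM (4.76 ± 0.23) and the inhibitor gene Cdkn1a (p21) from 129 ± 6.54 to 409 ± 10.3 CPM (1.67 ± 0.04). Ccnd3 fell from 245 ± 2.51 to 18.8 ± 0.795 CPM (-3.70 ± 0.06), and the factor gene E2f2 from 96.8 to 4.65 CPM (-4.38 ± 0.11). The inhibitor genes Cdkn1b (p27, from 59.2 ± 2.51 to 4.04 ± 0.529 CPM, -3.87 ± 0.12), Cdkn2c (from 37.9 to 2.34 CPM, -4.01 ± 0.16) and Cdkn2d (from 68.3 to 6.25 CPM, -3.45 ± 0.10) fell too.

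**Figure D2:**
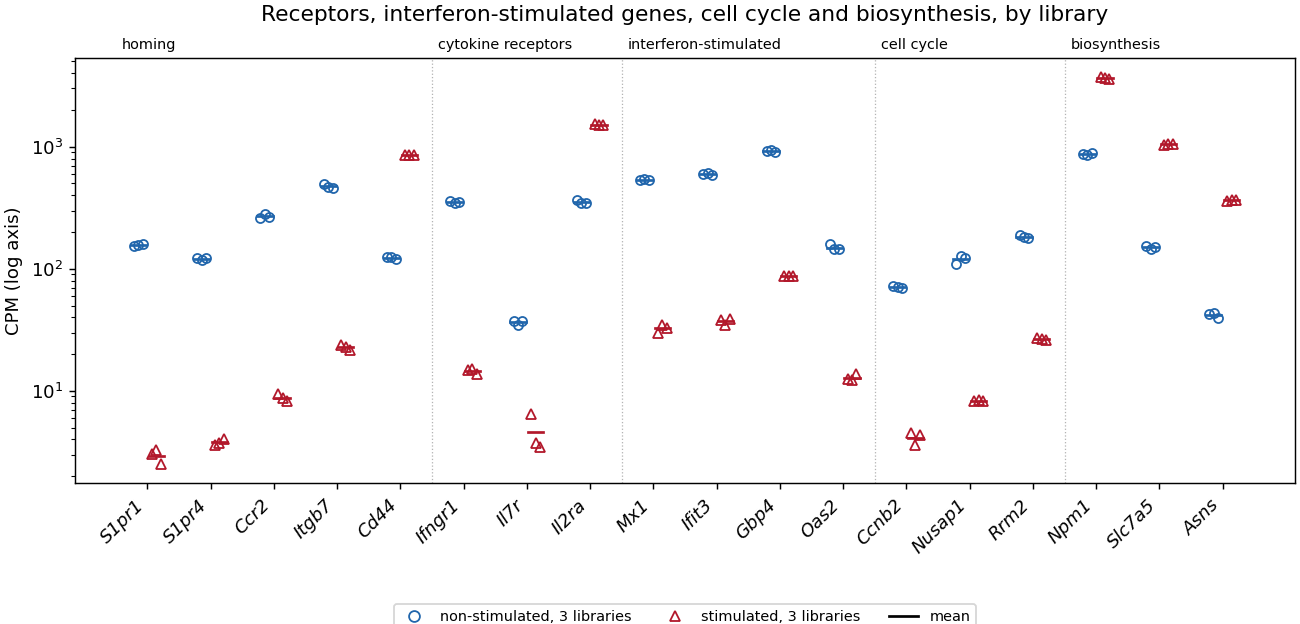
CPM on a log axis of 18 genes of 5 groups in each library, with open circles for the 3 non-stimulated and triangles for the 3 stimulated libraries and a bar at the mean. Homing receptors other than Cd44, Ifngr1, Il7r, interferon-stimulated and cell cycle genes are lower after stimulation, and Cd44, Il2ra, Npm1, Slc7a5 and Asns are higher, with no overlap between groups.

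Cytoskeletal genes fell in 21 of 25 cases. Coro1a, coronin 1A, fell from 1319, 1292 and 1271 to 126, 127 and 126 CPM (-3.36 ± 0.04), Myo1f from 253 to 21.9 CPM (-3.53 ± 0.06), the myosin heavy chain gene Myh9 from 1593 ± 17.0 to 343 ± 5.46 CPM (-2.22 ± 0.03), vimentin (Vim) from 2429 ± 13.5 to 442 ± 4.77 CPM (-2.46 ± 0.03) and the actin-binding thymosin gene Tmsb4x from 1798 to 383 CPM (-2.23 ± 0.03). Enah rose from 0.818 to 6.58 CPM (2.99 ± 0.28) and Wasl was not called. Among regulators of mRNA decay, the Regnase-1 gene Zc3h12a rose from 27.8 ± 0.590 to 129 ± 1.29 CPM (2.22 ± 0.06) and its relative Zc3h12c from 0.199 to 1.45 CPM (2.81 ± 0.58), while Zfp36l2 (from 363 to 90.0 CPM, -2.01 ± 0.04) and Zfp36 (from 119 to 54.5 CPM, -1.12 ± 0.05), whose proteins destabilise cytokine mRNAs, fell. Rc3h2 and Cnot1 were not called, and the list as a whole had 6 rises and 4 falls among 12. Autophagy genes gave 6 rises and 11 falls among 22, where 39.6% and 40.7% of all tested genes rose and fell. The regulator gene Tfeb (from 15.1 to 4.37 CPM, -1.78 ± 0.14), Atg9a (-2.48 ± 0.25) and Map1lc3b (from 74.0 to 31.1 CPM, -1.25 ± 0.06) fell, and the receptor gene Sqstm1 rose from 166 to 303 CPM (0.87 ± 0.04).

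**Figure D3:**
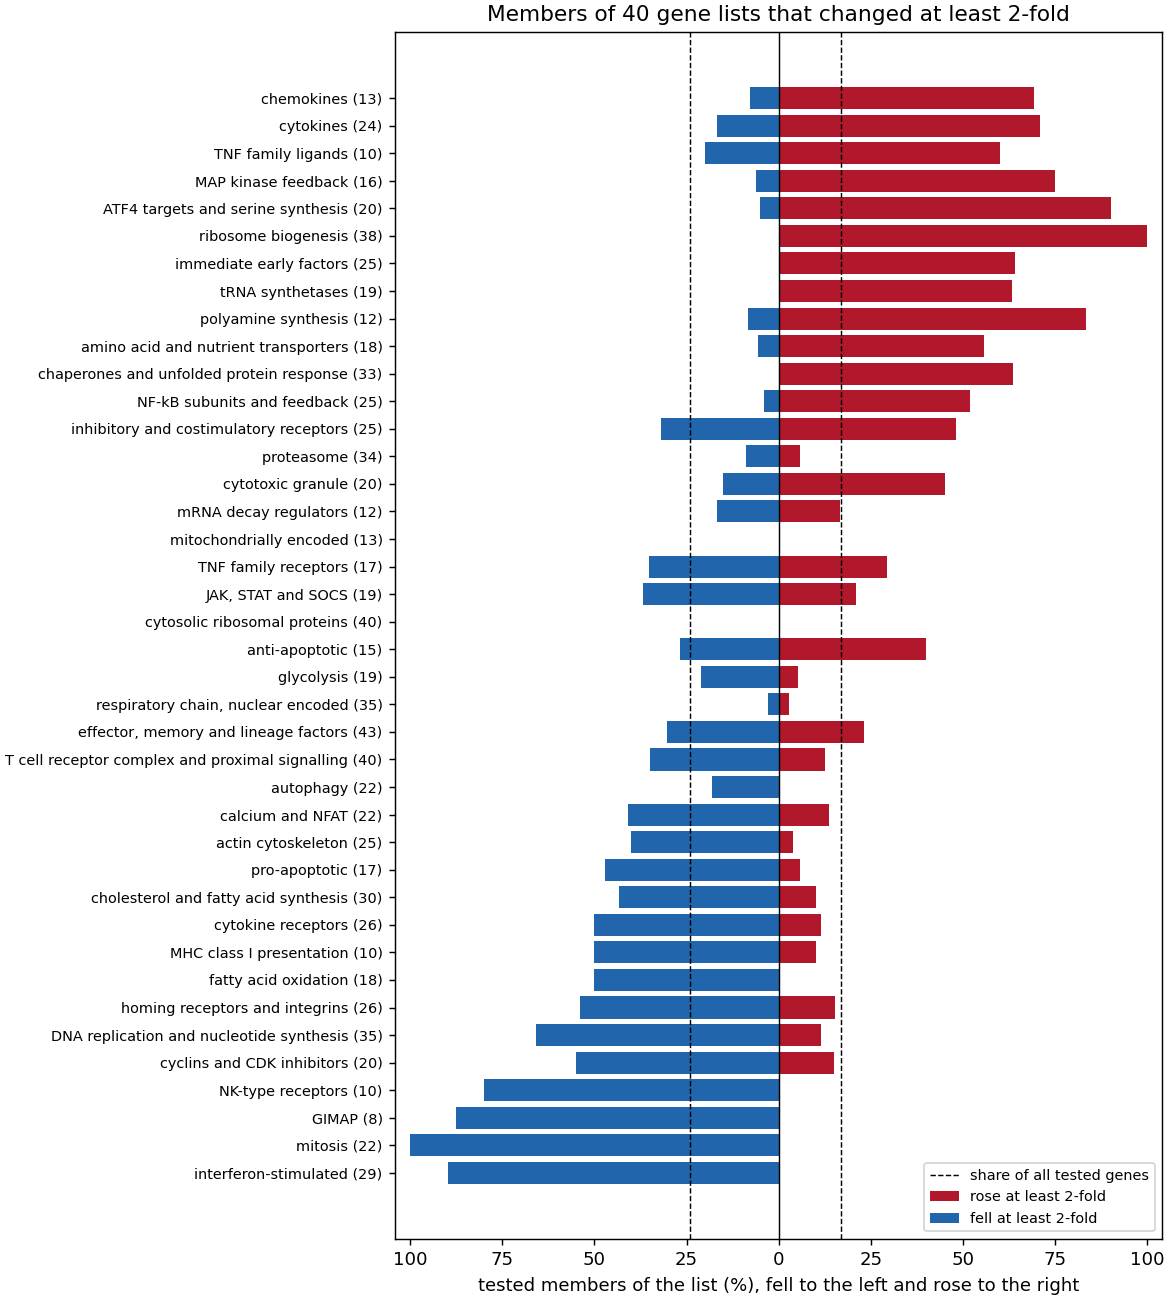
Percent of the tested members of each of 40 gene lists (number in brackets) that rose at least 2-fold, red to the right, or fell at least 2-fold, blue to the left, ordered by the median log2 change. Dashed lines mark the 17% and 24.1% of all 15702 tested genes that did so; ribosome biogenesis and mitosis reach 100% in opposite directions.

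The largest falls above 10 CPM came from several of these groups. Mettl7a1, with close copies in the genome, changed by -6.04 ± 0.60, and Fgl2, a secreted fibrinogen-like protein of T cells, fell from 316, 308 and 325 to 5.94, 5.18 and 5.10 CPM (-5.87 ± 0.10). After S1pr1 followed Nsg2 (from 50.5 to 0.990 CPM, -5.66 ± 0.24), the ADP-ribosyltransferase gene Art2b (-5.50 ± 0.49), Ifit1bl1, of the interferon-induced Ifit family (from 269 to 5.99 CPM, -5.49 ± 0.10), Baiap3 (from 89.9 to 2.03 CPM, -5.46 ± 0.17), the mitosis-associated genes Depdc1b (-5.38 ± 0.33) and Pimreg (from 44.3 to 1.12 CPM, -5.30 ± 0.22), Dpp4 (CD26, from 194 to 5.08 CPM, -5.25 ± 0.11), Rap1gap2 (from 58.2 to 1.55 CPM, -5.22 ± 0.19) and Fry (-5.17 ± 0.36). The largest fall above 10 CPM was thus 69.4-fold, while Penk and Adad1, the smallest of the 12 largest rises by their bounds, were at least 181-fold higher.

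Gene classes differed in the direction they took. Of 12020 protein-coding genes tested, 1998 (16.6%) rose and 3179 (26.4%) fell at least 2-fold, and of 899 long noncoding RNA genes 213 (23.7%) and 261 (29.0%). Of 57 small nucleolar RNA genes 39 (68.4%) rose and 1 fell. All had low levels, with means of at most 6.68 CPM, and many were below 1 CPM without stimulation. Snord104, for example, stood at 0.442 and 2.79 CPM. Genes this low can pass the filter on low counts only through groups where they are high. For them the direction was favoured in advance, and these counts are a description only. Small nucleolar RNAs guide the modification of ribosomal RNA and commonly lie in introns of other genes. The libraries were made from polyadenylated RNA, and whether the reads come from host transcripts was not tested. Of 24 T cell receptor V segments tested, 18 fell, 17 of them at least 2-fold, and 5 were not called. Trav6d-3 rose, from 1 count to 0.990, 0.838 and 0.381 CPM. Many segments were as low, such as Trgv2 (0.641 and 0.0254 CPM) and Trav14-1 (1.08 and 0.102 CPM). The limit set by the filter holds for these as well, and the counts of segments are a description only. The most abundant segment was Trbv12-1, a V beta 5 segment as the OT-I receptor uses, at 195 and 82.4 CPM (-1.24 ± 0.04). The alpha segments Trav14d-1 and Trav14n-1 carried the same values, 25.9 and 10.9 CPM, as each other, and near-identical copies of this kind are not independent. In all, 4 pairs among the 24 segments carried the same values as each other. Trac, the constant segment of the alpha chain and not among these 24, rose from 208 ± 1.68 to 292 ± 7.73 CPM (0.48 ± 0.04).

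The same stimulation of the 6 libraries with the Batf3 vector, which share no sample with the control-vector contrast, can be set beside these values. Of the 6462 genes that changed at least 2-fold with the control vector, 6437 (99.6%) had a change of the same sign with the Batf3 vector, and the Pearson correlation of the log2 changes across the 15702 genes was 0.95, where genes are not independent replicates. By edgeR's interaction test, the responses differed with an adjusted p under 0.05 for 3250 of the 15702 genes, whatever the size of the difference. For 244 of these (1.55% of all tested genes) the difference was at least 1 on the log2 scale. The largest such difference among the genes named here was that of Ctla4, with a log2 change of -3.43 with the control and 0.60 with the Batf3 vector (difference -4.03 ± 0.10). Il23a, Il10 and Cth rose more with the control vector (2.80 ± 0.49, 2.09 ± 0.77 and 3.23 ± 1.56), Ccnd1 rose less (-2.64 ± 0.46), and Icos fell further (-1.26 ± 0.08). Klrb1c, an NK-type receptor that overlaps others in sequence, and the autophagy gene Wipi1 also differed (-2.16 ± 0.52 and 2.25 ± 0.85), both at low levels. The difference for Batf3 itself (1.58 ± 0.11) cannot be told apart from reads of the vector's own Batf3 insert. The differences for Cth, Il10 and Wipi1, which rest on few counts in a group, were not called when single control-vector libraries were left out.

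**Figure D4:**
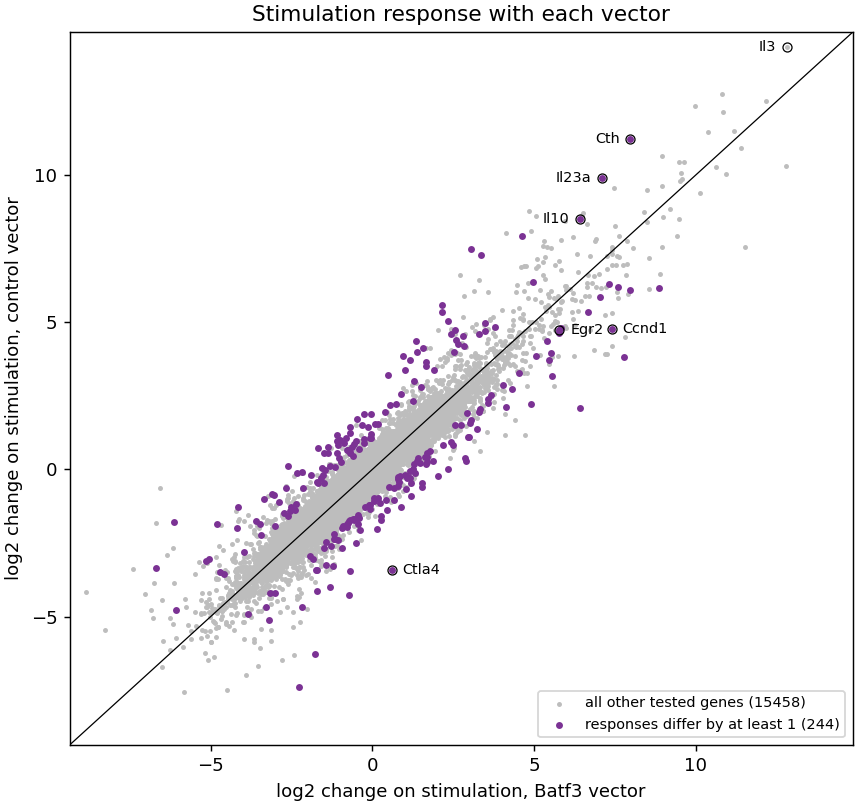
Log2 change on stimulation with the control vector against that with the Batf3 vector for 15702 genes, with the line of equality and named genes circled. Purple points are the 244 genes whose responses differ by at least 1 with an adjusted p under 0.05, of which Ctla4, at -3.43 and 0.60, lies farthest from the line among the circled genes.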

How the data were processed

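Raw read counts per gene were deposited by the authors as one table of 12 libraries, made from 100 ng of RNA by poly-A selection and a stranded kit with 15 PCR cycles, per the labels' protocols. STAR 2.7, featureCounts and GRCm38 are named in the submitters' processing notes. For the annotation release, the strand setting and multi-mapping reads, nothing is given in the sources used here, so overlapping, antisense and near-identical genes are uncertain: 25 of 13433 tested genes with at least 100 counts had the same counts as another gene in all 12 libraries. Identifiers were matched to GENCODE M21 for 55154 of 55335 genes.

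Genes were kept by filterByExpr, and TMM factors (0.917 to 1.05 in the control-vector libraries) and a quasi-likelihood fit of 4 group means over all 12 libraries, with 8 residual degrees of freedom, were computed with edgeR 4.0.16 in R 4.3.3. A called gene had a Benjamini-Hochberg adjusted p under 0.05. CPM has no pseudocount, and TPM used union exon lengths. Named genes were the 12 largest rises and falls above 10 CPM without overlap, up to 5 rises and 4 falls per list above 1 CPM, genes of set interest and the largest vector differences, and a few genes are not reported here. The members and gene lists were chosen with earlier results of these data known. Alternatives were other scalings, filters, DESeq2 1.42.0, the 6 libraries alone, a replicate block and each library left out. Floors of 3 counts cover counting error only.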

Additional observations from a re-analysis of the deposited data

Results flagged for a closer look

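The control-vector response differed from the Batf3-vector response by at least 1 on the log2 scale, with an adjusted p under 0.05 for the interaction term of edgeR's quasi-likelihood fit, for 18 named genes. Each was taken up because its response differs between the vectors, and differences are the control minus the Batf3 response.

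Receptor and cell cycle genes gave the largest differences below 0. Ctla4 had -4.03 ± 0.10, which came with a fall in the control-vector cells (-3.43) and a small positive change in the others (0.60). Ccnd1 had -2.64 ± 0.46 (control 4.76, Batf3 vector 7.40), so it rose in both and more with the Batf3 vector. The receptors Klrb1c (-2.16 ± 0.52), Icos (-1.26 ± 0.08) and Crtam (-1.01 ± 0.14), the ligand Tnfsf11 (-1.32 ± 0.17) and the granzyme gene Gzma (-1.15 ± 0.09) also had lower values with the control vector. Of the other genes, so did Egr2 (-1.06 ± 0.11) and the near-identical copies Bcl2a1b (-1.24 ± 0.16) and Bcl2a1d (-1.04 ± 0.12). Crtam fell short of the size threshold of 1 in 9 alternatives, at -0.964 to -0.997, and Bcl2a1d in 2, at -0.985 and -0.995.

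Secreted factors gave most of the differences above 0. Il23a rose by 9.90 with the control and by 7.10 with the Batf3 vector (difference 2.80 ± 0.49), Il10 had 2.09 ± 0.77, Il24 1.80 ± 0.37, Cxcl2 1.48 ± 0.55 and Cxcl16 1.22 ± 0.31. Cth (3.23 ± 1.56) and Wipi1 (2.25 ± 0.85) rest on few counts in a group. Without non-stimulated replicate 2 or 3 the adjusted p of edgeR's interaction term was 0.114 and 0.0694 for Cxcl2, 0.103 and 0.0592 for Il10, and 0.0723 and 0.0695 for Cth. With no filter on low counts it was 0.0628 for Il10 and 0.0684 for Wipi1, and for Wipi1 it was 0.0598 to 0.21 without non-stimulated replicate 1 or 2 or stimulated replicate 2 or 3. For Batf3 (1.58 ± 0.11), reads of the vector's insert and of the resident gene cannot be told apart.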

How the results depend on the processing

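Counts of called genes over the whole table kept within 1.5 times the reported value under each of 13 alternatives, but for one. The exception was the number of genes whose response differed between the vectors by at least 1 on the log2 scale. It was 244 with edgeR and 110 with DESeq2's Wald test, of which 109 were shared, and the cause was not tested. Without TMM factors the numbers of genes that rose and fell were 5086 and 7443, and the share of called genes that rose went from 49.3% to 40.6%. With 1 control-vector library left out, 6093 to 6141 genes rose and 6232 to 6385 fell, 2714 to 2760 and 3806 to 3850 of them at least 2-fold, and 209 to 251 differed between the vectors by at least 1. The numbers of list members that rose or fell were then 451 to 455 and 383 to 387. The share of counts in stimulated over non-stimulated cells was 18.4 to 18.5 for cytokines and 84.3 to 87.2 for chemokines.

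Deviations from the group means correlated at 0.0112, 0.00794 and -0.0126 for same-numbered libraries, so no pairing by replicate number was seen. Much of the spread between technical replicates is counting noise, so these correlations cannot decide whether a weak pairing exists. With the replicate block 6199 genes rose and 6362 fell, and 12551 called genes were shared. Not every library correlated best with the one of its own number.

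Among named genes, 6 values changed sign with library sizes alone. The rises of Eef1a1 (-0.00554) and mt-Co1 (-0.0136) were not called there, nor was that of Mcl1 (0.01), which kept its sign. Itgb2 (-0.17), Kcnn4 (-0.12), Birc3 (-0.17) and Cnot1 (-0.18), not called in the report, became called falls. Under that setting 9 other genes not called in the report were called falls, at -0.19 to -0.50: Cxcl10, Ccl25, Il6st, Il27ra, Traf2, Ikbke, Nab1, Klf10 and Vars. Il27ra was also called with the 6 control-vector libraries only (-0.10), Lilrb4a with DESeq2 size factors (0.12), and Il27ra, Lilrb4a, Cd244a and Klf10 with 1 library left out in some cases. Under the same setting, lists of small changes moved by more than 1.5 times: ribosomal proteins from 37 rises and 1 fall to 21 and 7, respiratory chain genes from 12 and 13 to 6 and 20, mitochondrially encoded genes from 9 rises to 2, and falls from 1 to 3 in chemokines, from 1 to 2 in tRNA synthetases, from 5 to 8 in proteasome subunits and from 2 to 4 in chaperones. The single fall of a ribosomal protein gene was not called in 6 other settings. The vector differences of Il10, Cxcl2, Cth, Wipi1, Crtam and Bcl2a1d missed a threshold under the alternatives given with them above. Depth limits statements on genes below 0.199 to 0.229 CPM, the value of 3 counts in a library, and the spread of technical replicates limits all p-values.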

Other observations

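Among genes above 1000 CPM in either culture, 61 changed at least 2-fold, 38 up and 23 down. Outside the gene lists, and chosen here after their values were seen, the steepest of the 23 falls was that of Samhd1, a dNTP hydrolase that restricts retroviruses, from 2418 ± 29.2 to 76.4 ± 2.63 CPM (-4.98 ± 0.04). Ifi209, of the interferon-inducible p200 family, fell from 1361 ± 10.9 to 53.3 ± 1.14 CPM (-4.67 ± 0.05), and Arhgap45, a GTPase-activating protein of haematopoietic cells, from 1110.4 ± 1.64 to 54.9 ± 1.81 CPM (-4.34 ± 0.04). The membrane gene Ms4a4b fell from 1386 to 131 CPM (-3.40 ± 0.04) and Ly6c2, a memory-associated surface protein with close copies in the genome, from 1024 to 159 CPM (-2.69 ± 0.04). Actb, often used as a constant reference gene, fell from 5790.2 ± 118 to 2076 ± 38.4 CPM (-1.48 ± 0.03).

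Among the 38 rises, also chosen after their values were seen, Furin, a proprotein convertase that processes TGF-beta among others, went from 143 ± 2.86 to 1277 ± 7.83 CPM (3.16 ± 0.04). Zbtb32, a repressor of effector responses, rose from 264 ± 0.941 to 1018 ± 19.7 CPM (1.94 ± 0.04). The translation initiation genes Eif3c (from 378 to 1262 CPM, 1.74 ± 0.03), Eif4a1 (from 997 to 2547 CPM, 1.35 ± 0.03) and Eif4g1 (from 491 to 1008 CPM, 1.04 ± 0.03) rose by smaller factors from higher levels. No library of one culture overlapped the other for any of these genes.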
